A study of Mus musculus with 18 samples.

Results

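A set of 9 transcription factors that direct lymphocyte fate was followed in RNA from whole B16F10 tumors: Tbx21, Eomes, Gata3, Foxp3, Runx3, Tcf7, Lef1, Bcl6 and Id2. They were taken by name from the gene count table, and all 9 were among the 17110 genes tested of 50600 in the table. Each was set beside Cd3e, which encodes a chain of the T cell receptor complex and served as the reading of T cell content.

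B16F10 is a mouse melanoma cell line that was grown under the skin of young female C57BL/6 mice, and the labels name no engineered allele. CDN2, a cyclic dinucleotide, activates STING, the sensor that starts interferon production, and exoCDN2 is CDN2 loaded into extracellular vesicles (EVs) from HEK293 cells, a human kidney cell line. The agent is called CL656 or exoCL656 in the sample labels and CDN2 or exoCDN2 in their treatment protocol, and these are read here as the same. The labels of single samples give the amounts of 20 and 100 µg, while the amount of exoCDN2 comes from the protocol. A single dose into the tumor was PBS, EVs without cargo, exoCDN2 at 0.1 µg, or CDN2 at 20 or 100 µg. A pair of doses, 3 days apart, was PBS, exoCDN2 at 0.1 µg, CDN2 at 20 µg, or CDN2 in an amount that the sample labels do not give. Tumors were taken 24 h after the last dose, with 2 tumors in each of the 9 groups, described by the study as biological replicates. They are called replicate 1 and replicate 2 here, and values are given in that order.

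T-bet (Tbx21) and Eomes drive cytotoxic and interferon gamma programs in CD8+ T cells, Th1 cells and NK cells, and Runx3 acts with them in the CD8+ lineage. Gata3, Foxp3 and Bcl6 specify Th2 cells, regulatory T cells and follicular helper T cells, while TCF1 (Tcf7) and Lef1 keep naive and memory T cells, and Id2 holds E proteins in check in effector and innate lymphocytes. Several of them also work outside lymphocytes, for example Id2 in many cell types and Bcl6 in myeloid cells. In RNA from a whole tumor, fewer cells of a type and less RNA per cell cannot be told apart.

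Of the 9 factors, only Tbx21 followed Cd3e across the 18 tumors, Runx3 followed it in part, and Eomes, Gata3, Foxp3, Tcf7, Lef1, Bcl6 and Id2 did not. Within groups the relation of Tbx21 was not shown. A factor was said to follow Cd3e where the Pearson correlation of log2 CPM, the count scaled to the size of the library, was at least 0.7 over all tumors and at least 0.5 both within the 10 tumors given 1 dose and within the 8 given 2 doses. It was said not to follow where the correlation was under 0.5 or was negative within a number of doses. After 2 doses of exoCDN2, Tbx21, Eomes, Gata3, Runx3 and Bcl6 were called higher than PBS, 5 of 9 (11.2% of all genes called). After 2 doses of CDN2 (20 µg) they were Tbx21, Runx3 and Bcl6, 3 of 9 (30.4%), near the share of all genes. The exoCDN2 calls for Eomes and Gata3 were lost when certain single tumors were left out. That of Tbx21 with CDN2 (20 µg) was lost against the PBS tumors of both dose numbers together.

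The 18 libraries held from 21608895 to 65983630 expected counts. The 8 melanocyte markers, among them Pmel and Tyrp1, had counts in every tumor. The 2 tumors given CDN2 (20 µg) in 2 doses stood apart from the other 16. Their summed melanocyte markers were 7713 and 13650 CPM against 15980 to 26760 elsewhere, their neutrophil markers 870 and 197.6 against 1.55 to 63.96, and their muscle markers 3914 and 1832 against 3.17 to 506.6. All 6 neutrophil and all 7 muscle markers had counts in both of these tumors. Between them 28.8% of genes differed more than 2-fold, against 6.45% to 14.9% within the other groups. Replicate 1 was also the library of lowest depth. Results that rest on them are given with these values in mind, and the part of other cells in them was not tested. Nothing in the labels shows whether tumors given 1 dose and tumors given 2 doses were handled together, so the number of doses and such a batch cannot be told apart.

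Cd3e was sparse in most tumors. It had 44 and 76 reads after 1 dose of PBS, 12 and 25 with unloaded EVs, 8 and 18 with exoCDN2, 21 and 33 with CDN2 (20 µg) and 1 and 4 with CDN2 (100 µg). After 2 doses it had 5 and 6 reads with PBS, 195 and 177 with exoCDN2, 20 and 21 with CDN2 (20 µg) and 40 and 46 with CDN2 of unlabelled amount. The exoCDN2 tumors given 2 doses were the highest of all, and the tumors given 1 dose of 100 µg or 2 doses of PBS the lowest. The log2 fold change of Cd3e against PBS of the same number of doses was 4.72 ± 0.66 (SE) for 2 doses of exoCDN2, 2.77 ± 0.68 for CDN2 (20 µg) and 3.13 ± 0.66 for CDN2 of unlabelled amount, and -4.27 ± 0.73 for 1 dose of CDN2 (100 µg). As a check of the yardstick, its correlation over the 18 tumors was 0.902 with Cd3d, 0.888 with Cd3g, 0.956 with Cd8a and 0.933 with Cd8b1. It was 0.701 with Ncr1, an NK cell receptor, and 0.027 with Cd4. Cd3e thus varied with the CD8 genes and not with Cd4, so whether a factor follows CD4+ T cells was not tested.

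Per kilobase of exon, most of these factors were not scarcer than Cd3e. The median level over 18 tumors was 30.2 CPM per kb for Id2, 4.40 for Tcf7, 1.19 for Bcl6 and 0.333 for Runx3. It was 0.171 for Tbx21, 0.164 for Eomes and 0.145 for Cd3e itself, and then 0.0896 for Gata3, 0.0704 for Foxp3 and 0.0397 for Lef1. Id2, Tcf7 and Bcl6 lay above Cd3e in 18 of 18 tumors, Runx3 in 17 and Tbx21 and Eomes in 10. Neighbours from Tbx21 to Cd3e differed in this order by less than their spread over the tumors.

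In GRCm38 the genes lie at chr11:97098071-97115331 (Tbx21), chr9:118478212-118486132 (Eomes), chr2:9857078-9890034 (Gata3), chrX:7573644-7595245 (Foxp3), chr4:135120652-135177990 (Runx3), chr11:52252371-52283014 (Tcf7), chr3:131110471-131224356 (Lef1), chr16:23965052-23988852 (Bcl6) and chr12:25093799-25097140 (Id2), and each is annotated as protein coding. Foxp3 shares 853 exon bases with Flicr on its own strand, and its expected count was not whole in 18 of 18 tumors. Lef1 shares 1208 exon bases with the antisense gene Gm43352 and was not whole in 10 tumors. The counting strand is not given in the sources used here, so both are uncertain.

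For 4 of the factors that rose after 2 doses of exoCDN2, the 250 bases before a start site are shown, since interferons and T cell factors are known to act at such sequences. They are from RefSeq on GRCm38.p6, read 5′ to 3′ on the strand of the gene, with matches in capitals, and none holds an annotated exon of its own gene. The windows are chr11:97115332-97115581 (minus strand) for Tbx21, chr9:118477939-118478188 (plus) for Eomes, chr4:135120395-135120644 (plus) for Runx3 and chr16:23981284-23981533 (minus) for the downstream start of Bcl6.
Tbx21: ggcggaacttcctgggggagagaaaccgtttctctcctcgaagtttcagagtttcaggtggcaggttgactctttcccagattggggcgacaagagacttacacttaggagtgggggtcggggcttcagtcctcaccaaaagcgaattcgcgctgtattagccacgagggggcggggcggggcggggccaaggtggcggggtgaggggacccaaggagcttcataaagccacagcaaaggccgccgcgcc
Eomes: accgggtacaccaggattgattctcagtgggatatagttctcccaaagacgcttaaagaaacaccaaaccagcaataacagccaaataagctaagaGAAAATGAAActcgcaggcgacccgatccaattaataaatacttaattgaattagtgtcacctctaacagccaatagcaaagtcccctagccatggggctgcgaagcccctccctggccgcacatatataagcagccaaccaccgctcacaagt
Runx3: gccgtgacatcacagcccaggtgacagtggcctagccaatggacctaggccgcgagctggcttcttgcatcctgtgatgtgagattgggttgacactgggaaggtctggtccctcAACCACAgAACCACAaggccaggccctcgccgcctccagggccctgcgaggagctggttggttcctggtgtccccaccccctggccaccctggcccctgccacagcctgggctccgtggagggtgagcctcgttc
Bcl6: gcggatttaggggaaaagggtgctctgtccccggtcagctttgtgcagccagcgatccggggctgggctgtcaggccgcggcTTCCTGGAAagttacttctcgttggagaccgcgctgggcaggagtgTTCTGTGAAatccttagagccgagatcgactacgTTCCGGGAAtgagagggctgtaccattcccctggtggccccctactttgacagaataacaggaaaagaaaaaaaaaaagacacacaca
The capitals mark GAAANNGAAA, the interferon response element, in Eomes, 2 copies of TGTGGTT, the RUNX letters, on the opposite strand in Runx3, and 3 copies of TTCNNNGAA, the GAS element, in Bcl6. The upstream start of Bcl6 (chr16:23988853-23989102) held 1 further TTCNNNGAA and a Foxp3 start (chrX:7580233-7580482) held 1. The window of Gata3 (chr2:9878601-9878850), which also rose, and the other Runx3 start (chr4:135152295-135152544) held no match. They are not shown, so the windows shown lean toward those with matches. Over both strands of 32851 mouse promoter windows of this length, TTCNNNGAA was present in 7.02%, GAAANNGAAA in 2.98%, TGTGGTT in 4.4%, AGGTGTGA (T-box) in 1.12% and CTTTGAA (TCF) in 4.46%. Of the 16 windows of the 9 factors, 3 held TTCNNNGAA, 1 held GAAANNGAAA, 1 held TGTGGTT and 0 held the T-box or TCF letters. A match describes the letters only.

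The levels of each factor by tumor, with Cd3e first, show that the pattern of Tbx21 resembles that of Cd3e while Id2 and Tcf7 have patterns of their own.

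**Figure D1:**
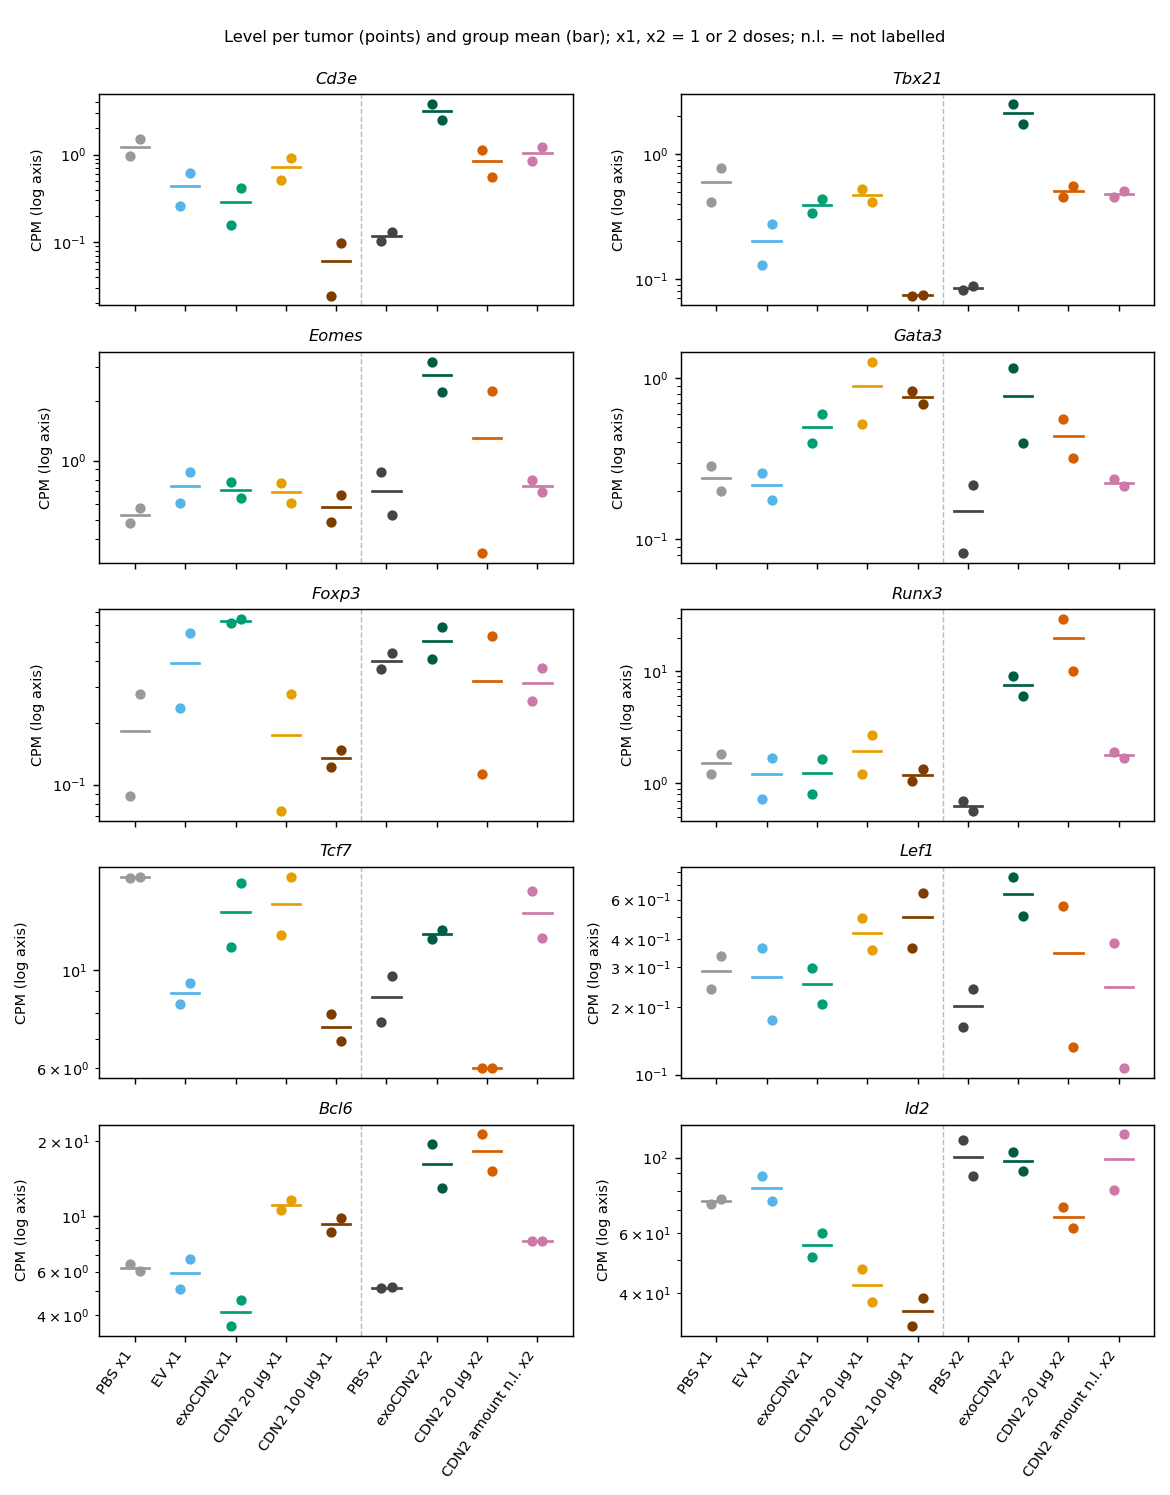
Level of Cd3e and the 9 factors in CPM (log axis) in each of 18 tumors (points) with the group mean (bar), left of the dashed line after 1 dose and right of it after 2 doses. Tbx21 is highest in the 2 tumors given 2 doses of exoCDN2 (2.51 and 1.75 CPM), Runx3 in those given 2 doses of CDN2 (20 µg) (29.3 and 10.14 CPM).

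Changes were called with edgeR's quasi-likelihood test on all genes, where the Benjamini-Hochberg adjusted p was below 0.05 and the ratio above 2, and every adjusted p below comes from it unless another test is named. The share of all tested genes called is given in brackets beside the first count of each comparison. For groups of 2 tumors the smallest two-sided p of an exact permutation test is 0.333, so the calls rest on a spread shared across groups and genes. After 1 dose, 0 of the 9 factors were called against PBS with unloaded EVs (0.0% of all genes), 0 with exoCDN2 (2.81%), 0 with CDN2 (20 µg) (3.26%) and 3 with CDN2 (100 µg) (2.5%). At an unadjusted p under 0.05 the counts were 2, 2, 3 and 5 of 9, beside 515, 2462, 2399 and 2399 of the 17110 genes. DESeq2 also called 0 factors in each of the first 3 of these comparisons, with 35, 694 and 719 genes called in all. After 2 doses, 5 were called with exoCDN2 (11.2%), 3 with CDN2 (20 µg) (30.4%) and 1 with CDN2 of unlabelled amount (0.959%).

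Between treatments, 1 factor was called for exoCDN2 against CDN2 (20 µg) after 1 dose (0.24% of all genes) and 2 after 2 doses (19.2%), and 3 for exoCDN2 against CDN2 of unlabelled amount (6.38%). None of the 9 was called for exoCDN2 against unloaded EVs (2.92%) or for CDN2 at 100 µg against 20 µg (0.491%). There 3 and 2 factors had an unadjusted p under 0.05, beside 2246 and 2375 of the 17110 genes. DESeq2 called 0 and 1 factors there, with 673 and 346 genes called in all. Between 2 doses and 1 dose, 1 was called with PBS (1.27%), 4 with exoCDN2 (7.32%) and 2 with CDN2 (20 µg) (20.5%). The shares for exoCDN2, 5 of 9 and 4 of 9, lie above their backgrounds, with 3 to 5 and 1 to 3 of 9 when 1 tumor was left out, whereas 3 of 9 for 2 doses of CDN2 (20 µg) is near its background. The effect against PBS itself differed between 2 doses and 1 dose for 3 of the 9 with exoCDN2 (6.69%), which were Tbx21, Runx3 and Bcl6, and for 2 with CDN2 (20 µg) (15.7%), Tbx21 and Runx3.

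**Figure D2:**
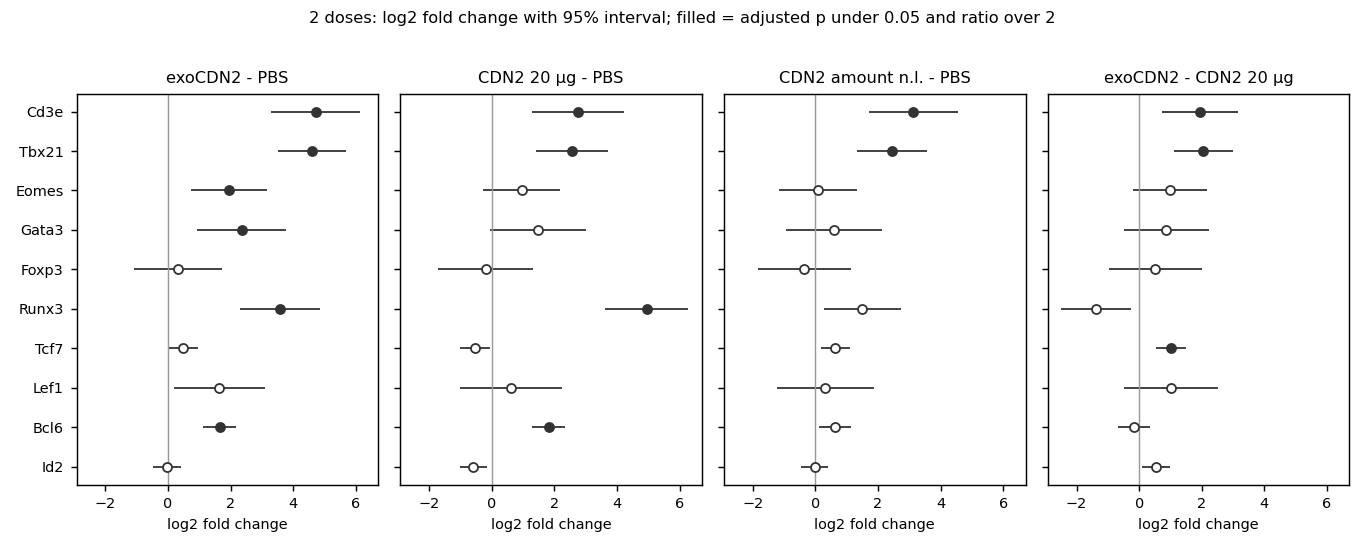
Log2 fold change with its 95% interval for Cd3e and the 9 factors in 4 comparisons after 2 doses, filled where the gene was called. Against PBS, Tbx21 stands at 4.61 for exoCDN2 and 2.55 for CDN2 (20 µg), and Runx3 at 3.58 and 4.95.

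Tbx21, the gene of T-bet, rose most after 2 doses of exoCDN2. It stood at 2.51 and 1.75 CPM there, at 0.449 and 0.557 with CDN2 (20 µg), at 0.450 and 0.506 with CDN2 of unlabelled amount and at 0.0816 and 0.0876 with PBS. The 3 treated groups all lay above PBS, and exoCDN2 lay above both CDN2 groups. Against PBS the log2 fold change was 4.61 ± 0.51 (SE) for exoCDN2 (24.4-fold, adjusted p = 3.75e-05), 2.55 ± 0.53 for CDN2 (20 µg) (adjusted p = 0.00187) and 2.46 ± 0.52 for CDN2 of unlabelled amount (adjusted p = 0.0391). The PBS tumors had 4 reads of Tbx21 each. The call for unlabelled CDN2 was lost without PBS replicate 1 (2.41, adjusted p = 0.117) or 2 (2.51, adjusted p = 0.293) and without its own replicate 2 (2.37, adjusted p = 0.212).

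After 1 dose, Tbx21 stood at 0.416 and 0.773 CPM with PBS, 0.130 and 0.275 with unloaded EVs, 0.337 and 0.437 with exoCDN2, 0.520 and 0.416 with CDN2 (20 µg), and 0.0732 and 0.0742 with CDN2 (100 µg). The 100 µg tumors, with 3 reads each, lay below every other 1-dose tumor. Tbx21 fell by 2.97 ± 0.53 (SE) on the log2 scale at 100 µg against PBS (95% interval -4.12 to -1.82, adjusted p = 0.00786). This call was lost without PBS replicate 2 (-2.45, adjusted p = 0.121) and without either 100 µg tumor (-2.96 and -2.98, adjusted p = 0.0945 and 0.0905). The difference from 20 µg missed the threshold (-2.62, adjusted p = 0.0515) and passed it with DESeq2 (-2.66, adjusted p = 0.0315).

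PBS itself differed between the sets of tumors. Tbx21 fell by 2.78 ± 0.51 on the log2 scale from 1 to 2 doses of PBS (adjusted p = 0.0121), as did Cd3e by 3.38 ± 0.66 (adjusted p = 0.0179). The call for Tbx21 was lost without PBS replicate 1 (-2.73, adjusted p = 0.0699) or 2 (-2.82, adjusted p = 0.147) of the 2-dose set or replicate 2 of the 1-dose set (-2.26, adjusted p = 0.186). Accordingly, the 2 doses of CDN2 (20 µg) left Tbx21 within the range of the 1-dose PBS tumors, and against all 4 PBS tumors its log2 fold change was 0.57 (adjusted p = 0.501). For unlabelled CDN2 it was then 0.48 (adjusted p = 0.878), while the exoCDN2 tumors lay above all 4 PBS tumors.

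The rise of Tbx21 from 1 to 2 doses of exoCDN2 was 2.45 ± 0.43 in log2 (adjusted p = 0.00365), and the call was lost without the first exoCDN2 tumor of either set (2.28, adjusted p = 0.0763, without that given 1 dose and 2.17, adjusted p = 0.0513, without that given 2). For CDN2 (20 µg) the change was 0.12 (adjusted p = 0.857). After 2 doses, exoCDN2 exceeded CDN2 (20 µg) by 2.05 ± 0.44 (adjusted p = 0.00612), with a value of 1.92 and an adjusted p of 0.0533 without CDN2 replicate 1. The amounts given differ, 0.1 and 20 µg. Against CDN2 of unlabelled amount the difference was 2.15 ± 0.42 (adjusted p = 0.00814). That call was lost without exoCDN2 replicate 1 (1.87, adjusted p = 0.135) or unlabelled CDN2 replicate 2 (2.24, adjusted p = 0.0661).

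Eomes, the paralog of Tbx21 that is also needed by NK cells, was highest after 2 doses of exoCDN2, apart from a single CDN2 (20 µg) tumor. It stood at 3.19 and 2.24 CPM with exoCDN2, 0.878 and 0.525 with PBS, 0.792 and 0.692 with CDN2 of unlabelled amount, and 0.336 and 2.25 with CDN2 (20 µg). Replicate 2 of CDN2 (20 µg) lay within the exoCDN2 range and replicate 1 below all other tumors of the series. In the 10 tumors given 1 dose Eomes lay between 0.481 and 0.875 CPM. The log2 fold change for exoCDN2 against PBS was 1.94 ± 0.57 (adjusted p = 0.0331). Its call was lost without PBS replicate 1 (2.36, adjusted p = 0.0626), PBS replicate 2 (1.62, adjusted p = 0.239) or exoCDN2 replicate 1 (1.67, adjusted p = 0.233).

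For CDN2 (20 µg) the change of Eomes was 0.96 ± 0.58 (adjusted p = 0.186), and its direction rested on a single tumor: it was -1.09 (adjusted p = 0.12) without replicate 2 and 1.67 (adjusted p = 0.00756) without replicate 1. Against CDN2 (20 µg), exoCDN2 gave 0.99 (adjusted p = 0.177), and 3.03 (adjusted p = 0.000833) without CDN2 replicate 2. From 1 to 2 doses of exoCDN2, Eomes rose by 1.93 ± 0.57 (adjusted p = 0.0452), a call that was lost without any 1 of the 4 tumors (values from 1.65 to 2.16).

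Runx3, which silences Cd4 and sustains cytotoxic and tissue resident T cells, was highest after 2 doses of CDN2 (20 µg) and not in the tumors richest in Cd3e. It stood at 29.3 and 10.14 CPM after 2 doses of CDN2 (20 µg), 9.11 and 6.05 with exoCDN2, 1.91 and 1.68 with CDN2 of unlabelled amount, and 0.694 and 0.569 with PBS. These 4 groups did not overlap. In the 10 tumors given 1 dose Runx3 lay between 0.735 and 2.69 CPM. Against PBS the log2 fold change was 4.95 ± 0.62 (30.9-fold, adjusted p = 5.92e-05) for CDN2 (20 µg), 3.58 ± 0.59 (11.9-fold, adjusted p = 0.00092) for exoCDN2 and 1.5 (adjusted p = 0.373) for CDN2 of unlabelled amount. Both calls were kept without each tumor in turn.

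The difference of exoCDN2 from CDN2 (20 µg) in Runx3, -1.37 ± 0.52, missed the threshold (adjusted p = 0.0558) and passed it with DESeq2 (-1.45, adjusted p = 0.0259), with RLE factors (-1.45, adjusted p = 0.0483), without a filter (-1.29, adjusted p = 0.00187) and without CDN2 replicate 2 (-1.92, adjusted p = 0.0064). Without CDN2 replicate 1 it was -0.43 (adjusted p = 0.625). Against CDN2 of unlabelled amount, exoCDN2 was higher by 2.08 ± 0.54 (adjusted p = 0.0309). That call was lost without exoCDN2 replicate 1 (1.75, adjusted p = 0.29) and without unlabelled CDN2 replicate 1 (2.17, adjusted p = 0.0747) or 2 (1.99, adjusted p = 0.197). From 1 to 2 doses Runx3 rose by 3.33 ± 0.57 with CDN2 (20 µg) (adjusted p = 0.00113), and by 2.62 ± 0.56 with exoCDN2 (adjusted p = 0.00956). The latter call was lost without exoCDN2 replicate 1 of the 1-dose set (2.19, adjusted p = 0.145) or of the 2-dose set (2.30, adjusted p = 0.0876). The summed macrophage markers of the tumors given 2 doses of CDN2 (20 µg) were 769 and 452.9 CPM against 169.7 to 612.5 in the other 16, beside the neutrophil and melanocyte values above, and their part in Runx3 was not tested.

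Gata3, the Th2 factor that also serves innate lymphoid cells and epithelia, had few reads, from 4 to 60 per tumor. After 2 doses it stood at 1.17 and 0.395 CPM with exoCDN2, 0.561 and 0.318 with CDN2 (20 µg), 0.236 and 0.213 with CDN2 of unlabelled amount and 0.0816 and 0.219 with PBS. After 1 dose it stood at 0.520 and 1.27 with CDN2 (20 µg), 0.830 and 0.692 with CDN2 (100 µg), 0.397 and 0.598 with exoCDN2, 0.284 and 0.198 with PBS and 0.259 and 0.175 with unloaded EVs. The STING agonist groups of either dose number lay above their PBS tumors, except CDN2 of unlabelled amount, which overlapped them. The 2-dose exoCDN2 fold was 2.35 ± 0.66 on the log2 scale (adjusted p = 0.0265). It lost its call without exoCDN2 replicate 1 (1.39, adjusted p = 0.388), PBS replicate 1 (1.81, adjusted p = 0.153) or PBS replicate 2 (3.20, adjusted p = 0.0553). For CDN2 (20 µg) the change was 1.88 (adjusted p = 0.152) after 1 dose and 1.48 (adjusted p = 0.0998) after 2.

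Foxp3, the factor of regulatory T cells, was not called in any comparison of levels between groups. It lay between 0.0743 and 0.644 CPM in the 18 tumors, its highest values being the 2 tumors given 1 dose of exoCDN2 (0.615 and 0.644). Those 2 lay above the 1-dose PBS tumors (0.0875 and 0.277), with a log2 fold change of 1.76 (adjusted p = 0.25). After 2 doses the groups overlapped, with 0.409 and 0.592 for exoCDN2, 0.112 and 0.531 for CDN2 (20 µg) and 0.367 and 0.438 for PBS. The fold change of exoCDN2 against PBS was 0.32 with a 95% interval from -1.09 to 1.73, so a change of either sign was not detectable at this depth. That of CDN2 (20 µg) was -0.19, and 0.39 without its replicate 1.

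Bcl6, a repressor that makes follicular helper T cells and is also used by B cells and myeloid cells, rose about equally with exoCDN2 and CDN2 (20 µg) after 2 doses. It stood at 19.5 and 13.0 CPM with exoCDN2, 21.4 and 15.1 with CDN2 (20 µg), 7.97 and 7.99 with CDN2 of unlabelled amount and 5.14 and 5.19 with PBS. The first 2 groups overlapped each other and lay above all others. Against PBS the log2 fold change was 1.65 ± 0.24 (adjusted p = 0.000394) for exoCDN2 and 1.82 ± 0.24 (adjusted p = 9.99e-05) for CDN2 (20 µg), both called without each tumor in turn. The difference between them was -0.17 (95% interval -0.67 to 0.34, adjusted p = 0.605), and 0.12 without exoCDN2 replicate 2 or 0.10 without CDN2 replicate 1.

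After 1 dose, Bcl6 was lower with exoCDN2 and higher with CDN2 than with PBS, by value. It stood at 3.63 and 4.62 CPM with exoCDN2, below PBS at 6.43 and 6.02, and at 10.6 and 11.6 with CDN2 (20 µg) and 8.69 and 9.87 with CDN2 (100 µg), above PBS. ExoCDN2 was lower than CDN2 (20 µg) by a log2 difference of -1.43 ± 0.24 (adjusted p = 0.0462), the only factor called there, and this call was lost without any 1 of the 4 tumors (values from -1.61 to -1.27). Neither group was called against PBS, with -0.59 (adjusted p = 0.26) for exoCDN2 and 0.84 (adjusted p = 0.079) for CDN2 (20 µg). From 1 to 2 doses of exoCDN2 Bcl6 rose by 1.98 ± 0.25 (adjusted p = 0.000801), a call kept without each tumor in turn. Over exoCDN2 after 2 doses against CDN2 of unlabelled amount it was higher by 1.03 ± 0.24 (adjusted p = 0.0186), just over the ratio limit. That call was lost without exoCDN2 replicate 1 (0.71, adjusted p = 0.328) or unlabelled CDN2 replicate 2 (1.03, adjusted p = 0.108), and by ratio with DESeq2 (0.99) and RLE factors (0.99).

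Tcf7, the gene of TCF1, was abundant and lowest after 2 doses of CDN2 (20 µg), where both tumors stood at 6.00 CPM. It stood at 11.8 and 12.4 with exoCDN2, 15.1 and 11.9 with CDN2 of unlabelled amount and 7.65 and 9.72 with PBS. The CDN2 (20 µg) tumors lay below all other tumors of the series and the exoCDN2 tumors above PBS. ExoCDN2 exceeded CDN2 (20 µg) by 1.01 ± 0.22 on the log2 scale (adjusted p = 0.00717), a ratio of 2.01 that falls under 2 with DESeq2 (0.96, adjusted p = 0.00086) and RLE factors (0.95, adjusted p = 0.0091). The adjusted p passed 0.05 without CDN2 replicate 1 (1.01, adjusted p = 0.0518) or exoCDN2 replicate 2 (1.00, adjusted p = 0.0541). Against PBS, neither exoCDN2 (0.47 ± 0.22, adjusted p = 0.173) nor CDN2 (20 µg) (-0.53 ± 0.22, adjusted p = 0.0643) was called. Against all 4 PBS tumors the value was -0.046 (adjusted p = 0.945) for exoCDN2 and -1.05 (adjusted p = 0.00875) for CDN2 (20 µg), which then passed both limits.

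After 1 dose Tcf7 stood at 16.2 and 16.3 CPM with PBS, 12.02 and 16.3 with CDN2 (20 µg), 11.3 and 15.7 with exoCDN2, 8.405 and 9.37 with unloaded EVs and 7.96 and 6.92 with CDN2 (100 µg). Tcf7 thus lay below PBS with unloaded EVs too, without a call (-0.86 with DESeq2, adjusted p = 0.0855). At 100 µg it fell by 1.13 ± 0.22 on the log2 scale (adjusted p = 0.0128), a call that was lost without any 1 of the 4 tumors (values from -1.23 to -1.03) and with all PBS tumors together (-0.74, adjusted p = 0.184). From 1 to 2 doses of CDN2 (20 µg) Tcf7 fell by 1.24 ± 0.23 (adjusted p = 0.00165), which was called without each tumor in turn. With PBS alone the change was -0.90 (adjusted p = 0.0714), and the difference of the CDN2 (20 µg) change from that of PBS was -0.34 (adjusted p = 0.471). For exoCDN2 the change was -0.16 (adjusted p = 0.708). The melanocyte markers, lower in the tumors given 2 doses of CDN2 (20 µg), are given above, and their part in the lower Tcf7 was not tested.

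Lef1, the partner of TCF1, had 4.37 to 38.9 expected counts per tumor and was not called in any comparison of levels between groups. After 2 doses it stood at 0.760 and 0.507 CPM with exoCDN2, 0.561 and 0.133 with CDN2 (20 µg), 0.386 and 0.107 with CDN2 of unlabelled amount and 0.163 and 0.241 with PBS. Only exoCDN2 did not overlap PBS, with a log2 fold change of 1.63 ± 0.68 (adjusted p = 0.131). For CDN2 (20 µg) it was 0.62, and -0.60 without its replicate 1.

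Id2, an inhibitor of E proteins, was the most abundant factor and was lowest after 1 dose of the free agonist. It stood at 47.1 and 37.7 CPM with 20 µg and 32.0 and 38.7 with 100 µg, against 72.9 and 75.9 with PBS, 88.6 and 74.4 with unloaded EVs and 51.3 and 59.97 with exoCDN2. Both CDN2 groups lay below PBS, and so did exoCDN2. Id2 fell by 1.07 ± 0.21 on the log2 scale at 100 µg (adjusted p = 0.0121), a call that was lost without any 1 of the 4 tumors (values from -1.22 to -0.95), and by 0.81 ± 0.21 at 20 µg (adjusted p = 0.0436), under the ratio limit. For exoCDN2 the change was -0.42 (adjusted p = 0.382). At 20 µg, 4 of the 8 endothelial markers fell and 0 rose (median -1.19, against 3.26% of all genes called), and the summed list stood at 62.6 and 65.8 CPM against 138.1 and 142.3 with PBS. At 100 µg 0 of the 8 were called (median 0.20). Over the 18 tumors Id2 and the endothelial list had an r of 0.486 (rho 0.589, adjusted permutation p = 0.141), with 0.277 within 1 dose and 0.615 within 2. With the melanocyte list r was 0.195 (rho 0.519, adjusted permutation p = 0.616), with 0.86 within 1 dose and 0.656 within 2. Among the other lists within 1 dose, r was lowest for neutrophil (-0.574) and highest for NK cell markers (0.546). The part of any of these cells in the lower Id2 was not tested.

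After 2 doses Id2 stood at 104.3 and 91.4 CPM with exoCDN2, 71.6 and 62.4 with CDN2 (20 µg), 80.6 and 117.2 with CDN2 of unlabelled amount and 112.6 and 88.5 with PBS. The exoCDN2 tumors overlapped PBS and the CDN2 (20 µg) tumors lay below it. The log2 fold change was -0.04 (95% interval -0.48 to 0.40) for exoCDN2 and -0.59 ± 0.21 (adjusted p = 0.0317, ratio under 2) for CDN2 (20 µg). From 1 to 2 doses Id2 was higher with both agents, by 0.82 (adjusted p = 0.0233) with exoCDN2 and 0.66 (adjusted p = 0.0268) with CDN2 (20 µg), each under the ratio limit. With PBS alone the value was 0.43 (adjusted p = 0.558), and the changes with the agents differed from it by 0.38 for exoCDN2 (adjusted p = 0.535) and 0.22 for CDN2 (20 µg) (adjusted p = 0.616), neither past the threshold.

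Across tumors, the correlation of Tbx21 with Cd3e was 0.913 (Spearman's rho 0.847, permutation p adjusted over the 9 factors = 0.00018, 18 tumors). It was 0.855 within the 10 tumors given 1 dose, 0.968 within the 8 given 2 doses and 0.889 without the 2 tumors farthest from the median of Cd3e, which were the first given CDN2 (100 µg) and the first given 2 doses of exoCDN2. Over all tested genes 2.02% reached 0.7 with Cd3e, and Tbx21 ranked 8th by the size of r. When each tumor was taken as its deviation from its group mean, r for Tbx21 was 0.477 (exact sign-flip permutation p adjusted over the 9 = 0.434), so the relation was not shown within groups.

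Runx3 had an r of 0.63 with Cd3e (rho 0.738, adjusted permutation p = 0.023), with 0.564 after 1 dose, 0.686 after 2 doses and 0.596 without the 2 farthest tumors (adjusted permutation p = 0.0559). Without the 2 tumors given 2 doses of exoCDN2 it was 0.514 (adjusted permutation p = 0.181), and over deviations from the group means 0.814 (adjusted exact permutation p = 0.0879). The tumors given 2 doses of CDN2 (20 µg) had the highest Runx3 at a middling Cd3e. Runx3 also departed from Cd3e elsewhere. With 1 dose of CDN2 (100 µg) mean Runx3 was 1.19 CPM against 1.53 with PBS, while mean Cd3e was 0.062 against 1.23.

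The other 7 factors had an r with Cd3e between 0.107 and 0.488, none past the threshold after adjustment. For Bcl6 it was 0.488 over 18 tumors (rho 0.463, adjusted permutation p = 0.106), -0.019 after 1 dose and 0.77 after 2. For Id2 it was 0.465 (rho 0.424, adjusted permutation p = 0.106), 0.581 after 1 dose and -0.007 after 2. For Tcf7 it was 0.455 (rho 0.486, adjusted permutation p = 0.106), 0.781 after 1 dose and 0.378 after 2. Those 3 each tracked Cd3e in value within a single set of doses and not in the other.

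Eomes had an r of 0.422 (rho 0.172, adjusted permutation p = 0.121), with 0.107 after 1 dose and 0.472 after 2. Without the tumors given 2 doses of CDN2 (20 µg), r was 0.687 for Tcf7 (adjusted permutation p = 0.0103) and 0.571 for Eomes (adjusted permutation p = 0.0457). Without the 2 tumors farthest from the median of Cd3e, it was 0.434 for Tcf7, 0.147 for Eomes, 0.499 for Bcl6 and 0.166 for Id2, so the values for Eomes and Id2 rest largely on those 2. For Lef1, Foxp3 and Gata3, whose reads were few, r was 0.16, 0.147 and 0.107 (rho 0.16, 0.084 and -0.024, adjusted permutation p = 0.627, 0.627 and 0.674). Gata3 went from -0.408 within 1 dose to 0.81 within 2 doses.

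**Figure D3:**
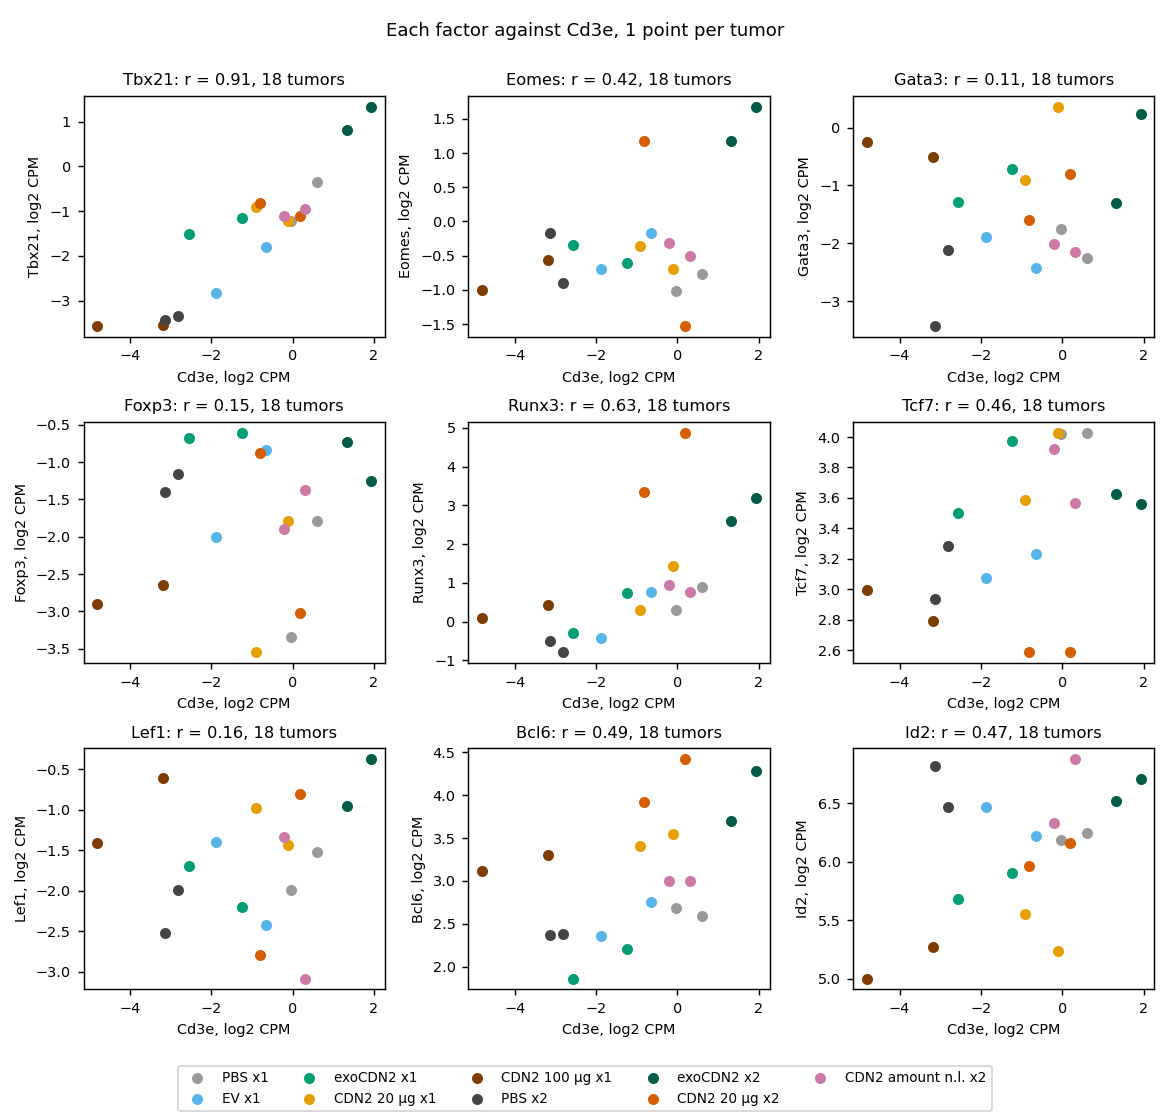
Log2 CPM of each factor (vertical) against log2 CPM of Cd3e (horizontal), 1 point per tumor and 1 color per group, with Pearson's r over 18 tumors. Tbx21 lies along a line (r = 0.91), whereas the tumors given 2 doses of CDN2 (20 µg) lie above the rest for Runx3 and below for Tcf7.

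The counts of each factor per 100 reads of Cd3e had the narrowest range for Tbx21, while the order of the other factors was not that of r. Leaving out the 2 tumors given CDN2 (100 µg), which had 1 and 4 reads of Cd3e, Tbx21 ranged from 40 to 212.5 reads per 100 of Cd3e, a 5.31-fold range over 16 tumors. The range was 12.6-fold for Bcl6, 19.0-fold for Gata3, 21.3-fold for Runx3, 21.6-fold for Lef1, 24.2-fold for Tcf7, 28.7-fold for Eomes, 40.2-fold for Id2 and 42.6-fold for Foxp3. The highest Tbx21 value belonged to an exoCDN2 tumor given 1 dose, with 17 reads of Tbx21 and 8 of Cd3e.

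**Figure D4:**
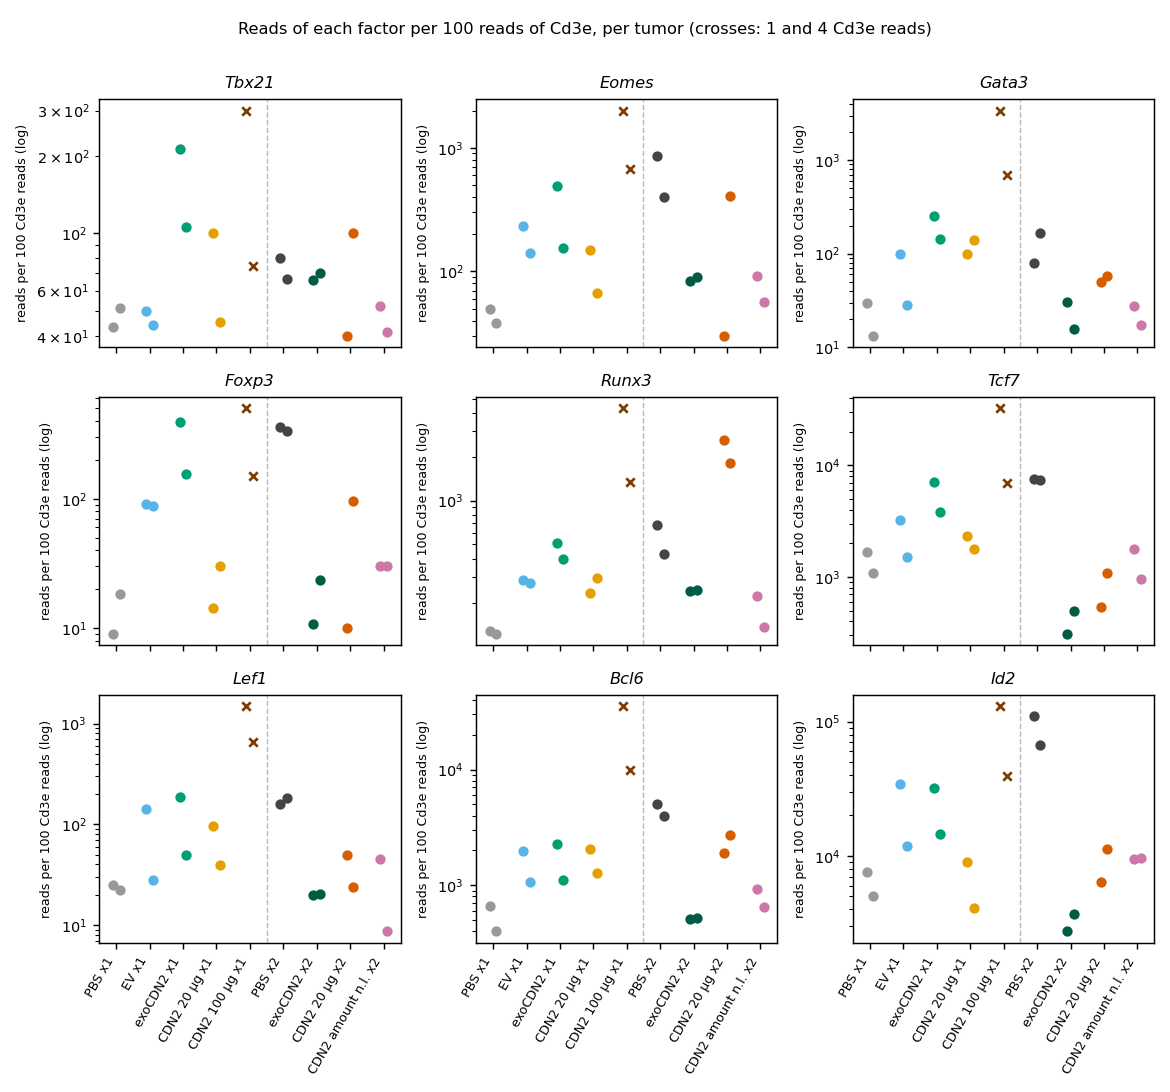
Reads of each factor per 100 reads of Cd3e (log axis) in each tumor by group, with crosses for the tumors given CDN2 (100 µg), which had 1 and 4 reads of Cd3e. Tbx21 keeps within 40 and 212.5 in the other 16 tumors, while Runx3 is high in those given 2 doses of CDN2 (20 µg).

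In a second fit across all genes, with the Cd3e count of each tumor in place of the library size, a fold change is that of a gene per Cd3e. Because Cd3e itself moved, most genes change on this scale, and the calls are read against that. The error in a tumor's Cd3e count is common to all its genes, while the pooled spread treats genes as separate. The p-values and intervals of this fit may therefore be too small. After 2 doses of exoCDN2 against PBS, 7 of 9 factors were called (93.9% of all genes), and the 2 that were not were Tbx21 and Runx3. The counts were 4 of 9 (75.3%) for CDN2 (20 µg), 7 of 9 (92.8%) for CDN2 of unlabelled amount, 2 of 9 (56.9%) for exoCDN2 against CDN2 (20 µg), 8 of 9 (84.8%) for 1 dose of exoCDN2 and 8 of 9 (93.7%) for 2 against 1 dose of PBS. All of these shares lie near or below their backgrounds.

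Tbx21 was not called per Cd3e in any of the 6 comparisons. Its log2 fold change per Cd3e was 0.02 (95% interval -2.01 to 2.05) for 2 doses of exoCDN2, 0.03 (-2.07 to 2.13) for CDN2 (20 µg), -0.53 (-2.62 to 1.56) for unlabelled CDN2, -0.01 (-1.83 to 1.81) for exoCDN2 against CDN2 (20 µg), 0.51 (-1.57 to 2.58) between the PBS sets and 1.66 (-0.23 to 3.54) for 1 dose of exoCDN2. These intervals are wide, and a p that misses the threshold does not show that the ratio was constant. Runx3 per Cd3e rose by 2.09 ± 0.82 with 2 doses of CDN2 (20 µg) (adjusted p = 0.017), where the median of all genes was -2.59, and changed by -1.08 (adjusted p = 0.188) with exoCDN2. The difference of exoCDN2 from CDN2 (20 µg) was -3.17 ± 0.84 (adjusted p = 0.00194).

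The Runx3 calls per Cd3e are not firm. For CDN2 (20 µg) against PBS the call was lost without PBS replicate 1 (2.43, adjusted p = 0.0572) or 2 (1.81, adjusted p = 0.131), without CDN2 replicate 1 (1.81, adjusted p = 0.0882) and with Cd3d, Cd3e and Cd3g summed (1.44, adjusted p = 0.0677). For exoCDN2 against CDN2 (20 µg) it was lost without exoCDN2 replicate 1 (-3.16, adjusted p = 0.0842) or 2 (-3.17, adjusted p = 0.0552). Tcf7 per Cd3e fell by 4.09 ± 0.87 with exoCDN2 (adjusted p = 4.22e-06) and by 3.12 ± 0.84 with CDN2 (20 µg) (adjusted p = 0.000798), near the medians of all genes, -4.57 and -2.59. The second of these calls was lost without CDN2 replicate 1 (-2.70, adjusted p = 0.0516).

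The genes whose log2 CPM was most like each factor, among 12663 or 12664 genes of mean log2 CPM of at least 0 over the 18 tumors, set the factors apart in the same way. For Tbx21 they were Ms4a4b (r = 0.936), Itgal (0.933) and Il2rb (0.921), and for Cd3e they were Cd8a (0.956), Nkg7 (0.930) and Clec12a (0.916). For Runx3 they were Ly6e (0.983), H2-Q7 (0.980) and Ly6a (0.980), of which H2-Q7 has close paralogs that can share reads. For Bcl6 they were Ddit3 (0.931), Unc13d (0.920) and Cd68 (0.914), and for Id2 Chst12 (0.903), Amotl2 (0.894) and Fam222a (0.886). Eomes was closest to Acp2 (0.863), Ggt1 (0.853) and Aox1 (0.849), and Gata3 to Itga5 (0.894), Tox4 (0.886) and Tmem140 (0.873). For Tcf7 the nearest was Kazn (0.797), for Lef1 Numb (0.731) and for Foxp3 1600012H06Rik (0.728). The values are descriptions over tumors that share groups.

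Against lists of marker genes for 11 cell types, 99 relations in all, Tbx21 went with the T cell list (r = 0.944, rho 0.847, adjusted permutation p = 0.00099) and the NK cell list (r = 0.808, rho 0.721, adjusted permutation p = 0.00223). Without the 2 farthest tumors these values were 0.930 and 0.645. The T cell list includes Cd3e itself. Tumors share groups, so the p-values of all 99 relations include differences between groups, and relations within groups were not tested for these lists. Eomes went with the NK cell list more than with T cells by value, with an r of 0.775 (rho 0.587, adjusted permutation p = 0.0058) and 0.601 (rho 0.42, adjusted permutation p = 0.0481). Without the 2 farthest tumors they were 0.530 and 0.566. Of the 7 NK cell markers, Ncr1, Klre1, Klra4 and Klrb1f were at 0 in the first tumor given CDN2 (100 µg), Klra8 and Klrb1f in the second and Klra4 in the first given unloaded EVs. Of the T cell markers, Trat1 was at 0 reads in 9 tumors, and Cd5, Ubash3a and Cd8a were at 0 in 1 tumor given CDN2 (100 µg).

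Runx3 went with macrophage markers (r = 0.802, rho 0.822, adjusted permutation p = 0.00223) and with T cell markers (r = 0.709, rho 0.866, adjusted permutation p = 0.00891), and against melanocyte markers (r = -0.830, rho -0.672, adjusted permutation p = 0.00148). For macrophages r was 0.851 within 1 dose and 0.952 within 2 doses, for T cells 0.713 and 0.708, and for melanocytes -0.359 and -0.867. With NK cell markers r was 0.749 (rho 0.756, adjusted permutation p = 0.00854), and 0.371 and 0.741 within the sets. With neutrophil markers it was 0.699 (rho 0.467, adjusted permutation p = 0.013) and with fibroblast markers 0.691 (rho 0.377, adjusted permutation p = 0.0174), but -0.140 and -0.210 within 1 dose and 0.454 and 0.348 without the 2 farthest tumors. Bcl6 went with macrophage markers (r = 0.745, rho 0.713, adjusted permutation p = 0.0058), with 0.536 within 1 dose and 0.963 within 2, and against melanocyte (r = -0.684, rho -0.633, adjusted permutation p = 0.00574) and dendritic cell markers (r = -0.617, rho -0.620, adjusted permutation p = 0.0409). Gata3 went with B cell (r = 0.626, rho 0.649, adjusted permutation p = 0.0409) and neutrophil markers (r = 0.609, rho 0.742, adjusted permutation p = 0.0469). By rank it went against melanocyte markers (rho -0.777, adjusted permutation p = 0.0052), where r was -0.424 (adjusted permutation p = 0.241). Without the 2 farthest tumors that r was -0.877. Tcf7 went against fibroblast markers (r = -0.680, rho -0.666, adjusted permutation p = 0.0152), with -0.633 and -0.678 within the 2 sets.

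**Figure D5:**
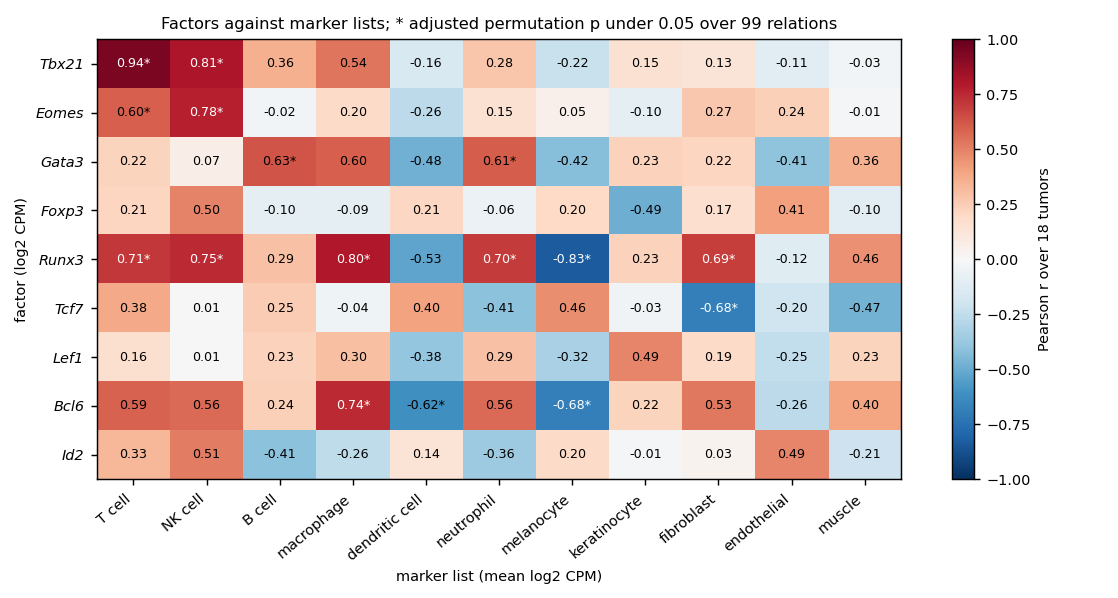
Pearson's r over 18 tumors between the log2 CPM of each factor (vertical axis) and the mean log2 CPM of each marker list (horizontal axis), in color and digits, with an asterisk at an adjusted permutation p under 0.05 over 99 relations. Tbx21 is strongest with T cells (0.94) and Runx3 with macrophages (0.80) and, negatively, melanocytes (-0.83). Tumors share groups, so the p-values include differences between groups.

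Some or all of the tested genes known to lie downstream of each factor rose after 2 doses, by the counts that follow, in comparisons that called 11.2% of all genes with exoCDN2 and 30.4% with CDN2 (20 µg). Most T cell and NK cell markers, given below, rose in the same comparisons. The part of cell content in the downstream genes was not tested. Of 8 genes downstream of Tbx21 and Eomes, 7 rose and 0 fell with exoCDN2 (median log2 fold change 4.49, against 0.01 over all genes), and 6 rose and 1 fell with CDN2 (20 µg) (median 3.83). With exoCDN2, Gzmb (granzyme B) rose by 6.76 ± 0.58 (adjusted p = 3.62e-06), Prf1 (perforin) by 5.68 ± 0.53 (adjusted p = 7.7e-06) and Il2rb, a chain of the interleukin 2 receptor, by 4.69 ± 0.53 (adjusted p = 4.95e-05). Cxcr3, a chemokine receptor of effector T cells named here after its values were seen, was the exception, at -1.05 (adjusted p = 0.052) with exoCDN2, and it fell by 2.54 ± 0.37 (adjusted p = 0.000175) with CDN2 (20 µg).

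Of the genes downstream of Foxp3, 6 of 7 rose with exoCDN2 (median 1.72) and 7 of 7 with CDN2 (20 µg) (median 2.40), although Foxp3 was not called. Il2ra rose by 3.11 ± 0.46 with either agent (adjusted p = 0.000395 and 0.000192). Of 7 genes downstream of Tcf7 and Lef1, 4 rose and 0 fell with exoCDN2 (median 3.55), and 5 rose and 1 fell with CDN2 (20 µg) (median 2.45). Il7r, the interleukin 7 receptor, rose by 3.94 ± 0.50 and 4.73 ± 0.52 (adjusted p = 0.000126 and 2.17e-05), while Axin2, a Wnt target also named after its values were seen, was at -0.04 (adjusted p = 0.93) and fell by 1.44 ± 0.23 (adjusted p = 0.000307).

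Of 3 genes tested downstream of Gata3, 2 rose with exoCDN2 and 3 with CDN2 (20 µg) (medians 2.08 and 3.22), Il1rl1 (the interleukin 33 receptor) by 5.54 ± 0.82 and 8.72 ± 0.93 (adjusted p = 0.000422 and 1.79e-05). Of 4 downstream of Bcl6, 2 and 3 rose (medians 3.06 and 2.89), Pdcd1 (PD-1) by 4.65 ± 0.63 and 2.92 ± 0.64 (adjusted p = 0.000208 and 0.00242). Of 4 downstream of Runx3, 2 rose with either agent (medians 2.31 and 1.93), Cd8a by 5.29 ± 0.82 and 2.91 ± 0.79 (adjusted p = 0.000571 and 0.00914) and Itgb7 by 3.57 ± 0.53 and 3.63 ± 0.53 (adjusted p = 0.000404 and 0.000165). Cd8a and Cd28, a Tcf7 and Lef1 list member, belong also to the T cell list, Ikzf2 to the Foxp3 list and the list of other factors, and Pax5 to that list and the B cell list.

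Of 48 other factors of lymphocyte fate that were tested, 18 rose and 0 fell with 2 doses of exoCDN2 (median 0.80), and 22 rose and 3 fell with CDN2 (20 µg) (median 1.03). These comparisons called 11.2% and 30.4% of all genes. Among those of smallest p with exoCDN2 were Ikzf1 (3.32 ± 0.34, adjusted p = 1.84e-05) and Ikzf3 (5.10 ± 0.66, adjusted p = 0.000145), the lymphoid factors Ikaros and Aiolos, and Irf8 (4.16 ± 0.54, adjusted p = 0.000156). With CDN2 (20 µg) they included Hopx (4.65 ± 0.45, adjusted p = 9.64e-06), Nfil3 (3.35 ± 0.39, adjusted p = 3.64e-05) and Maf (4.42 ± 0.54, adjusted p = 4.64e-05), and the 3 that fell were Nfatc2 (-1.29), Ets1 (-1.13) and Tcf12 (-1.06). Between the agents, where 19.2% of all genes were called, 12 were higher and 8 lower with exoCDN2 (median 0.10). Maf (-3.81 ± 0.52, adjusted p = 0.00208), Nfil3 (-2.15 ± 0.37, adjusted p = 0.00337) and Sox4 (-1.12 ± 0.20, adjusted p = 0.00358) were lower with exoCDN2, and Nr4a3, induced by T cell receptor signals, was higher (1.52 ± 0.29, adjusted p = 0.00429).

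The cell type markers were counted in the same comparisons, with 11.2% of all genes called for exoCDN2 and 30.4% for CDN2 (20 µg). With exoCDN2, 15 of 16 T cell markers rose (median 4.25) and 7 of 7 NK cell markers (4.90), and of the others 3 of 8 for macrophages (1.28), 5 of 6 for neutrophils (5.07), 3 of 8 for fibroblasts (0.91), 0 of 4 for B cells (0.56), 0 of 11 for keratinocytes (5.97), 0 of 8 for endothelium (0.04) and 0 of 7 for muscle (-0.25). The keratinocyte median is not firm, since 7 of the 11 markers were at 0 reads in replicate 2 of PBS and of exoCDN2. The same PBS tumor enters the keratinocyte median for CDN2 (20 µg) below. Of dendritic cell markers 1 of 6 fell (-0.41). Of melanocyte markers 0 of 8 were called (-0.56), although Dct (-0.82, adjusted p = 0.00224) and Mlana (-0.67, adjusted p = 0.0285), both named after their values were seen, passed the limit on p with a ratio under 2. With CDN2 (20 µg), 12 of 16 T cell (2.69), 6 of 7 NK cell (3.70), 6 of 6 neutrophil (8.70) and 6 of 7 muscle markers (3.92) rose, with 5 of 8 melanocyte markers (-1.37) and 2 of 6 dendritic cell markers (-1.51) lower. Macrophage markers had 6 higher and 1 lower of 8 (1.42), fibroblast markers 4 of 8 higher (0.99), keratinocyte markers 2 of 11 higher (3.13), B cell markers 1 of 4 higher (0.26) and endothelial markers 2 of 8 lower (-0.16). The part of these cells in the change of any factor was not tested.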

How the data were processed

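RNA from 18 B16F10 tumors was sequenced as paired reads of 150 bases. The authors aligned it to GRCm38 with OSA in ArraySuite 10.1 and deposited RSEM expected counts for each gene of Ensembl 88, not normalized, so reads shared between genes were split and 8.75% to 12.7% of values per tumor were not whole. Here they were rounded. Symbols came from GENCODE M21 for 50376 of 50600 genes, and promoters from RefSeq on GRCm38.p6. The counting strand is not given in the sources used here.

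Genes were kept by filterByExpr (minimum count 10, minimum total 15, 2 tumors), which left 17110. The 18 tumors in 9 groups were fitted together with edgeR 4.0.16 (R 4.3.3, limma 3.58.1), TMM factors and the quasi-likelihood test, with a common biological coefficient of variation of 0.228 and 9 residual degrees of freedom. Benjamini-Hochberg adjustment ran over all tested genes. A second fit replaced the library size by the Cd3e count plus 0.5, as an offset. Its coefficient of variation was 0.515. Group labels came from the sample labels. With 2 tumors per group, the edgeR p-values rest on a spread between tumors that is shared across groups and genes.

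Correlations used log2 CPM with a prior count of 0.5 and 100000 permutations, two-sided, whose smallest p is 1e-05, adjusted over the 9 factors or over 99 relations (scipy 1.17.1, numpy 2.4.6, pandas 2.3.3). These permutations ran across groups, so their p-values include differences between groups. Within-group deviations from the correlations with Cd3e were tested by exact sign flips. Named genes were the 9 factors, the 3 genes most like each and at most 4 genes of smallest p per list. Some genes that this rule names are not reported here. The members and lists were chosen with earlier results of these data known. Alternatives were DESeq2 1.42.0, RLE factors, no filter, no ratio limit, other sets of tumors, the sum of Cd3d, Cd3e and Cd3g, the replicate number as a block and leaving out each tumor. Scripts were tested on simulated data.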

Additional observations from a re-analysis of the deposited data

Results flagged for a closer look

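The effect of treatment against PBS, tested as an interaction in the edgeR quasi-likelihood fit, was larger after 2 doses than after 1 dose for 5 pairs of factor and agent. With exoCDN2 the difference of the log2 fold changes was 5.23 for Tbx21 (adjusted p = 0.000486), 3.90 for Runx3 (adjusted p = 0.00894) and 2.25 for Bcl6 (adjusted p = 0.00136). With CDN2 (20 µg) it was 2.90 for Tbx21 (adjusted p = 0.0125) and 4.61 for Runx3 (adjusted p = 0.00281). The call for Runx3 with exoCDN2 was lost without replicate 2 of the 2-dose PBS tumors (3.76, adjusted p = 0.0517) or replicate 1 of the 1-dose exoCDN2 tumors (3.47, adjusted p = 0.0566), and that for Tbx21 with CDN2 without replicate 2 of the 1-dose PBS tumors (2.36, adjusted p = 0.0722). PBS itself differed between the sets for Tbx21 (-2.78), and the number of doses and a batch cannot be told apart. Groups of 2 tumors are too small for a test of single tumors that stand apart.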

How the results depend on the processing

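Few reads and 2 tumors per group limit these results, and the cause of the changes below was not tested. With DESeq2, 64 of 68 results kept their direction and side of the threshold, with RLE factors 65 of 68, and all 9 correlations did so with a prior count of 2 and with DESeq2 size factors. Of the results without 1 tumor, 277 did so, 65 lost a call, 15 changed direction, 3 gained a call and 36 counts moved over 1.5 times. Numbers of factors called follow, with the value given before in brackets. Except with DESeq2, the share of all genes called under each setting is not given here. A change in these numbers therefore cannot be told from a change in all calls.

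With DESeq2, 1 [0] was called for CDN2 at 100 against 20 µg, which was Tbx21. DESeq2 called 346 genes in all there, against 84 with edgeR. With no filter on low counts, 1 [0] was called for 1 dose of CDN2 (20 µg), 2 [1] for CDN2 of unlabelled amount, 2 [1] for PBS between the sets, 1 [0] for 100 against 20 µg and 5 [3] for exoCDN2 against CDN2 of unlabelled amount. With no limit on the ratio, 1 [0] was called for 1 dose of CDN2 (20 µg) and 4 [2] for CDN2 (20 µg) between 2 doses and 1 dose. With only the groups compared in the fit, 0 [1] were called for CDN2 of unlabelled amount, 1 [0] for 1 dose of exoCDN2 and 0 [2] for exoCDN2 against CDN2 (20 µg) after 2 doses, where edgeR gave Tbx21 2.04 (adjusted p = 0.137) and Tcf7 0.99 (adjusted p = 0.143).

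Against all 4 PBS tumors, 2 [0] were called for 1 dose of CDN2 (20 µg) and 0 [1] for CDN2 of unlabelled amount, and the log2 fold change reversed to 0.26 for Foxp3 with 2 doses of CDN2 (20 µg) and to 0.16 for Id2 and -0.046 for Tcf7 with 2 doses of exoCDN2. With Cd3d, Cd3e and Cd3g as the yardstick, 7 [4] were called for 2 doses of CDN2 (20 µg) and 4 [8] for 1 dose of exoCDN2, and Tbx21 reversed to -0.75 for CDN2 (20 µg), to -0.39 for exoCDN2 and to 0.36 between them, none called.

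With the replicate number as a replicate block, 0 [1] factors were called for exoCDN2 against CDN2 (20 µg) after 1 dose, Bcl6 being at -1.43 (adjusted p = 0.0562). Eomes from 1 to 2 doses of exoCDN2 was at 1.94 (adjusted p = 0.0554), Runx3 per Cd3e with CDN2 of unlabelled amount passed (-1.52, adjusted p = 0.0389), and 88 results kept their side. Deviations of same-numbered tumors correlated between -0.125 and 0.287, so the numbers are only names. Crossed numbers, chosen after seeing the data, changed none of 15 results.

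Over deviations from the group means, r with Cd3e was 0.477 for Tbx21, 0.814 for Runx3 and -0.206 for Eomes. Without the 2 farthest tumors it was 0.596 for Runx3 and -0.082 for Foxp3. Without the tumors given 2 doses of exoCDN2 it was 0.514 for Runx3, -0.011 for Foxp3, -0.102 for Gata3 and -0.138 for Lef1, and without those given 2 doses of CDN2 (20 µg) 0.571 for Eomes and 0.687 for Tcf7.

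Leaving out each tumor in turn, the number called lay between 0 and 1 for CDN2 (100 µg), CDN2 of unlabelled amount and PBS between the sets, was 0 to 0 for exoCDN2 against CDN2 (20 µg) after 1 dose, and lay between 3 and 5 for 2 doses of exoCDN2, 0 and 4 for exoCDN2 against either CDN2 group after 2 doses, 1 and 3 for exoCDN2 between 2 doses and 1 and 1 and 3 for the CDN2 (20 µg) interaction. Per Cd3e it lay between 0 and 8 for 1 dose of exoCDN2, 1 and 5 for 2 doses of CDN2 (20 µg), 3 and 7 for CDN2 of unlabelled amount, 0 and 4 for exoCDN2 against CDN2 (20 µg) and 4 and 7 for PBS. Directions changed for Id2 with exoCDN2 (-0.20 to 0.14), for Eomes (-1.09 to 1.67), Foxp3 (-1.85 to 0.39) and Lef1 (-0.60 to 1.43) with CDN2 (20 µg), and for Gata3 (-0.075 to 1.48), Foxp3 (-0.080 to 2.17) and Bcl6 (-0.46 to 0.12) between the agents. Tbx21 per Cd3e ranged from -0.10 to 0.14 with exoCDN2, -0.77 to 0.54 with CDN2 (20 µg) and -0.52 to 0.80 between them.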
